A study of Arabidopsis thaliana with 12 samples.

Results

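AILP1 (AT5G19140), which encodes an aluminium-induced-like protein, and AT5G49120, which encodes an FLZ-type zinc finger protein of the DUF581 family, were followed in an array comparison of the toc90 mutant of Arabidopsis thaliana with the wild type (WT). Each gene was read from its probe that lists exactly 1 gene, and where a gene had several such probes the one with the highest mean over the 12 readings was to be taken. Both genes had 1 such probe, so they are 2 of the 691 genes with a single-gene probe, on a table of 3439 probes. Both genes were selected on their measured values in the WT and toc90 readings, so their difference between the groups is given as a description with no test. The groups were WT, ecotype Columbia 0, with 6 readings, and the toc90 mutant, likewise in Columbia 0, with 6 readings, each of total RNA and each numbered 1 to 6. The labels say that protein import over the outer chloroplast envelope is impaired in the mutant, and name no tissue, age, growth condition or allele. They do not say whether readings came from separate plants.

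TOC90 belongs to the family of GTPase receptors at the outer chloroplast envelope that take up preproteins made in the cytosol. Aluminium-induced-like proteins carry a domain related to class II glutamine amidotransferases, the fold that asparagine synthetase and glutamate synthase use to release ammonia from glutamine, and relatives in plants are known as transcripts that respond to aluminium, to darkness or to sugar supply. FLZ proteins carry a short zinc finger that in Arabidopsis binds the SnRK1 protein kinase, a sensor of low carbon and energy that is built from catalytic, beta and regulatory subunits.

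All values of level below are the authors' deposited intensities, on a scale that runs from 0 to 100 and is otherwise not given in the sources used here. The meaning of a value of 0 is not stated, and a 0 is treated here as the floor of the scale. The toc90 columns differed from the WT columns over the whole table. The share of probes listed at 0 was 13.5% to 17.3% in WT and 20.3% to 33.4% in toc90, and the column median was 0.151 to 0.157 in WT and 0.0593 to 0.0687 in toc90. The column mean was 0.768 to 1.03 in WT and 0.736 to 1.06 in toc90. The number of arrays behind these readings limits the precision, and is not stated in the sources used here. No single-gene probe was listed for TOC90 itself, so its level was not analysed here.

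AILP1 was read at 0.602, 0.59, 0.514, 0.605, 0.48 and 0.534 in WT readings 1 to 6. In toc90 readings 1 to 6 it was read at 0.0651, 0.0603, 0, 0, 0.0114 and 0.0145. All 6 toc90 readings were low and none reached the WT range, and numbers 3 and 4 were both listed at 0. The WT mean was 0.554 ± 0.0522 and the toc90 mean 0.0252 ± 0.0297 (SD, n = 6 each, zeros included), which put toc90 at 4.55% of WT. The lowest WT reading was 7.37 times the highest toc90 reading.

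AT5G49120 was read at 0.744, 0.803, 1.03, 1.12, 0.822 and 0.91 in WT readings 1 to 6. In toc90 readings 1 to 6 it was read at 0.212, 0.141, 0.212, 0.0716, 0.0629 and 0.0535. Again the groups did not overlap, and no toc90 reading was listed at 0. The WT mean was 0.905 ± 0.145 and the toc90 mean 0.125 ± 0.0736 (SD, n = 6 each), which put toc90 at 13.9% of WT. The lowest WT reading of AT5G49120 was 3.52 times the highest toc90 reading. Over all probes, 19.9% lay lower in all 6 toc90 readings than in any WT reading and 1.4% lay higher in all 6.

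**Figure D1:**
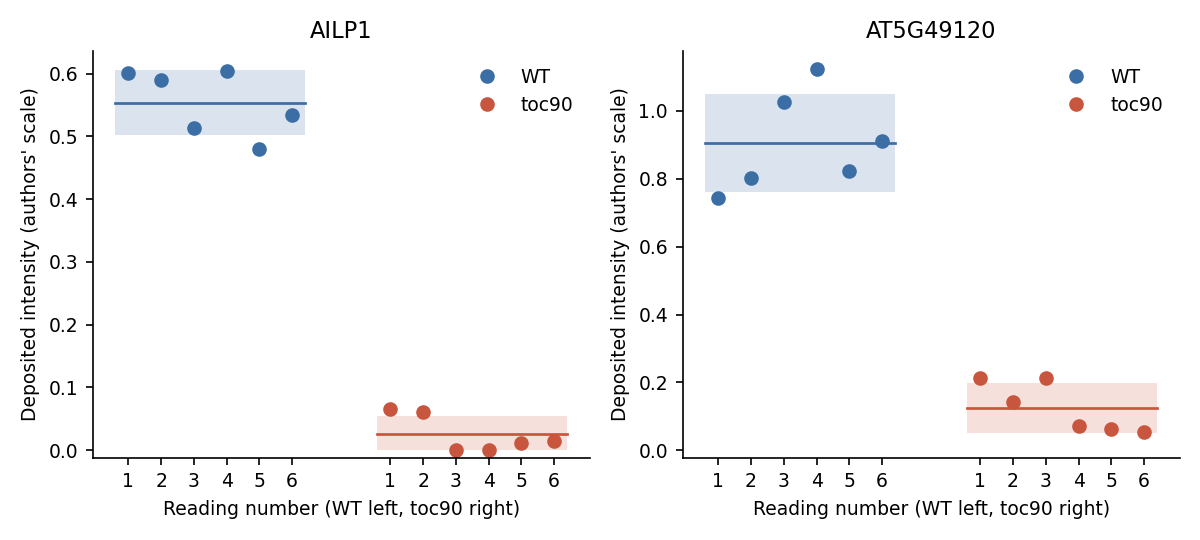
Deposited intensity (authors' scale, linear axis) of AILP1 and AT5G49120 in each of the 6 WT and 6 toc90 readings, by reading number, with the group mean as a line and 1 SD as a band that is cut at 0. The WT readings of AILP1 lie between 0.48 and 0.605 and its toc90 readings between 0 and 0.0651, and those of AT5G49120 lie between 0.744 and 1.12 and between 0.0535 and 0.212.

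The 2 genes stood in toc90 at different shares of their own WT means. Set against its WT mean, AILP1 stood at 11.8%, 10.9%, 0%, 0%, 2.05% and 2.62% in toc90 readings 1 to 6. AT5G49120 stood at 23.4%, 15.6%, 23.4%, 7.91%, 6.95% and 5.91%. In every one of the 6 toc90 readings AT5G49120 kept a larger share of its WT mean than AILP1 did, a comparison that rests on the chosen contrast and was not tested.

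The spread among toc90 readings was also set out by neighbouring numbers, a pairing that the labels do not state. In toc90, AILP1 averaged 0.0627 in numbers 1 and 2, 0 in numbers 3 and 4, and 0.013 in numbers 5 and 6, with gaps inside these pairs of 0.00478, 0 and 0.00315. Its range between pairs, 0.0627, was therefore far wider than any gap within a pair. Numbers 3 and 4 were also the toc90 columns with the most probes at 0, at 31.9% and 33.4%, against 20.3% to 26.7% in the others. The average and gap of 0 in that pair lie at the floor, and the part of this column trait in the spread was not tested. AT5G49120 averaged 0.176, 0.142 and 0.0582 in the same toc90 pairs, and here the gap between numbers 3 and 4, at 0.14, was wider than the range of 0.118 between pairs. Both genes were highest in toc90 numbers 1 and 2 by pair average. They differed in numbers 3 and 4, where AILP1 was listed at 0 and AT5G49120 was read at 0.212 and 0.0716.

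Within WT the 2 genes varied in different ways. AILP1 had a coefficient of variation of 9.43% and AT5G49120 one of 16.1%. The WT values of AT5G49120 were highest in numbers 3 and 4, at a pair average of 1.07 against 0.774 and 0.866, and the column means of WT numbers 3 and 4, 1.02 and 1.03, were also the highest of the group. Divided by the column mean, AT5G49120 had a smaller coefficient of variation, 8.38%. AILP1 did not share this pattern, with pair averages of 0.596, 0.559 and 0.507. The gap between its WT numbers 3 and 4, 0.0908, was wider than the range of 0.0887 between these averages, and its coefficient of variation was larger after the same division, at 15.3%.

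The rank of a probe within its own reading does not depend on how a column was scaled, although it follows the brightness of the probe and is no measure of transcript amount. AILP1 was brighter than 78.3% to 83.6% of all probes in the WT readings. In toc90 it was brighter than 51.9% and 49.3% in numbers 1 and 2 and than 27.1% and 27.8% in numbers 5 and 6, and in numbers 3 and 4 it shared the floor with every other probe listed at 0. AT5G49120 was brighter than 87.2% to 89.9% of probes in WT. In toc90 readings 1 to 6 it was brighter than 74.7%, 67.9%, 71.4%, 52.8%, 51.1% and 46.8%. By rank every toc90 reading of both genes lay below every WT reading, which describes the same chosen contrast. The share of all probes that did so by rank was not counted. By deposited value it was 19.9% of all probes and 21.6% of the 691 genes with a single-gene probe.

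**Figure D2:**
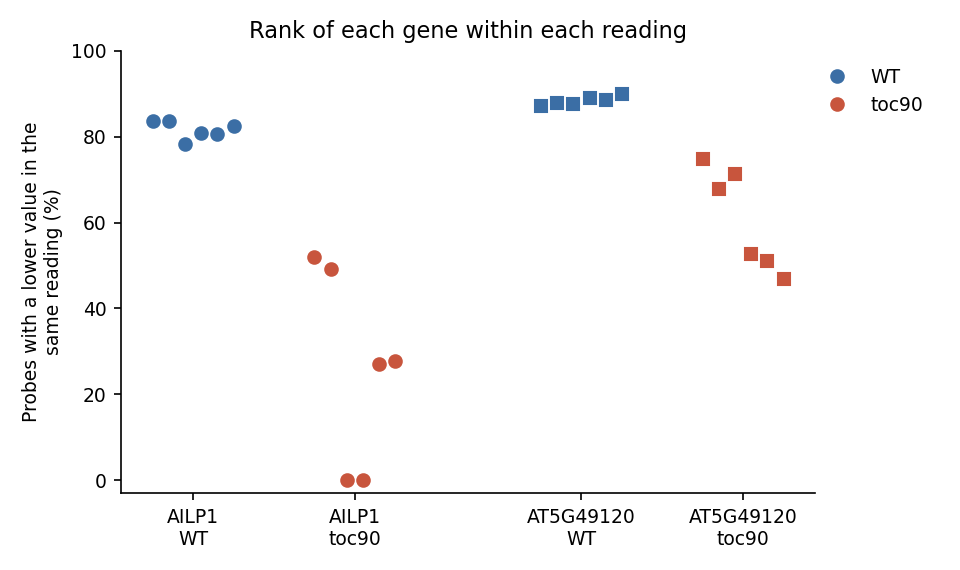
Percentage of all 3439 probes with a lower value than AILP1 (circles) or AT5G49120 (squares) in the same reading, with 1 point for each of the 6 readings of WT and of toc90, drawn from left to right by number. AILP1 goes from 78.3% to 83.6% in WT to at most 51.9% in toc90, and AT5G49120 from 87.2% to 89.9% in WT to at most 74.7%.

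On the log2 scale, after quantile normalization and with zeros left out, the limma coefficient for toc90 minus WT was -3.48 ± 0.41 (SE) for AILP1 and -2.74 ± 0.30 for AT5G49120. The AILP1 value leaves out toc90 numbers 3 and 4, which were at 0, and so rests on 4 toc90 readings. The median log2 difference of the 2687 probes tested was -0.21, and relative to it AILP1 stood at -3.28 and AT5G49120 at -2.53. By this coefficient AILP1 had the 6th lowest and AT5G49120 the 20th lowest value of the 537 genes tested on a single-gene probe. That ranking leaves out every gene with fewer than 3 values above 0 in a group. Among those left out were AT5G48830 and AT3G20150, whose toc90 means were 1.22% and 0% of WT. By the ratio of group means with zeros included, they were the 25th and the 61st lowest of 642 genes with a WT mean above 0, a ranking that holds many dimmer genes whose toc90 readings are at or near the floor. In the same fit limma called 17.0% of tested probes lower and 6.92% higher in toc90 at a Benjamini-Hochberg adjusted p under 0.05, which was 457 and 186 of 2687. With median scaling the split was 339 lower and 431 higher.

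The size of the AILP1 difference depended on the treatment of zeros and on the scaling. It was -7.72 in log2 where each 0 was replaced by the lowest positive value of the table and -3.07 with a constant added to every value before log2. With values as deposited, where zeros were left out as in the coefficient of -3.48 and columns were not normalized, it was -4.28. For AT5G49120, which had no zeros, these 3 settings gave -2.44, -2.22 and -3.06. Divided by its column median, which was lower in toc90, AILP1 stood at 0.115 of its WT mean and AT5G49120 at 0.341.

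**Figure D3:**
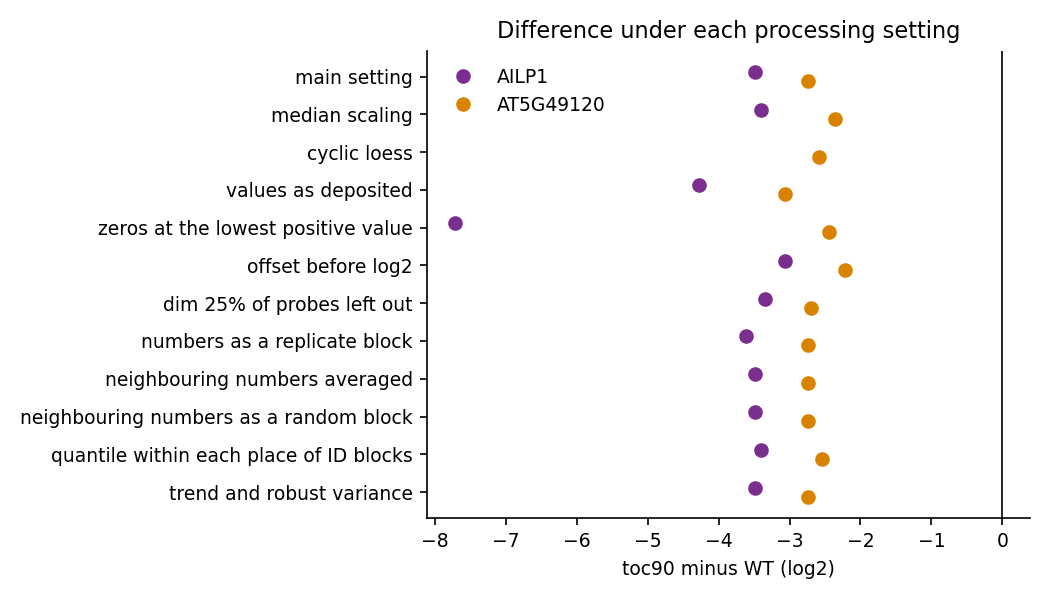
Difference of toc90 minus WT in log2 (horizontal axis) for AILP1 and AT5G49120 under the main setting and each other processing setting, with a line at 0 for no difference. Points lie between -7.72 and -3.07 for AILP1 and between -3.06 and -2.22 for AT5G49120, and AILP1 has no point for cyclic loess, which used probes without zeros.

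Because the column median was lower in toc90, both genes were set beside probes of like brightness in WT. Of 324 probes with a WT mean between 0.5 and 1, the median stood at 75.2% of WT in toc90, with quartiles at 47.1% and 104% and the lowest 5% of probes at 9.34% or less. AILP1, at 4.55%, lay below that last value, and AT5G49120, at 13.9%, lay between it and the lower quartile. For the 61 genes of this brightness with a single-gene probe, both bounds were lower. Their lower quartile was 27.9% and their lowest 5% stood at 6.59% or less, and AILP1 and AT5G49120 lay on the same sides of these. Among these 324 probes, 11.4% had at least 1 toc90 reading at 0, as AILP1 had in 2 readings, and 0.926% had at least 1 WT reading at 0. Over the 691 genes, the toc90 mean was below the WT mean in 494 and above it in 180.

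**Figure D4:**
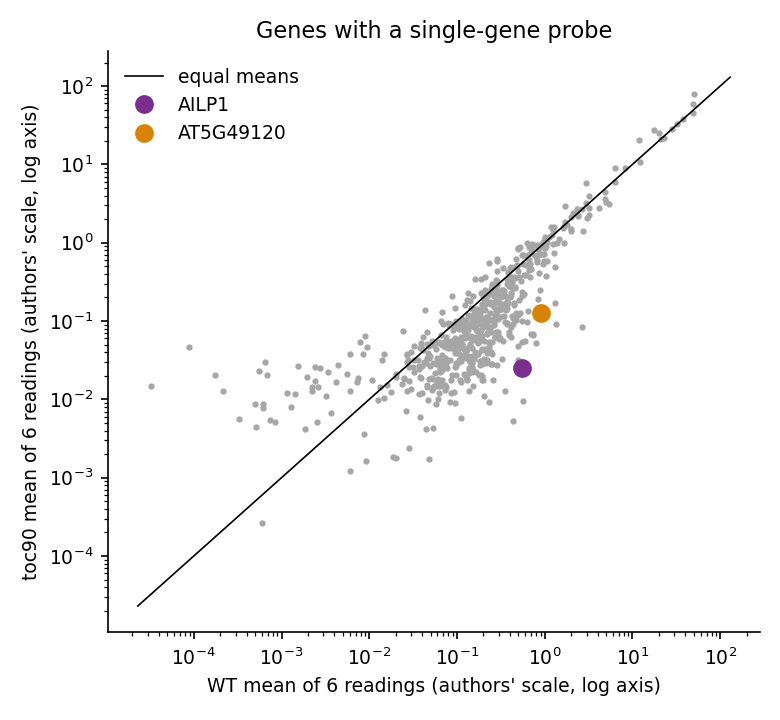
Mean of the 6 toc90 readings against the mean of the 6 WT readings (deposited intensity, zeros included, both axes logarithmic) for the 624 genes with both means above 0, with a line of equal means. AILP1 (0.554 in WT, 0.0252 in toc90) and AT5G49120 (0.905 and 0.125) lie below the line, and the other 67 genes have a mean of 0 in a group and are not drawn.

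The difference between the groups also varied with probe ID. In consecutive blocks of 96 probe IDs taken in runs of 3, the AT5G49120 probe lay in the second place and the AILP1 probe in the third. Among probes with a WT mean between 0.5 and 1, toc90 stood at a median of 82.8% of WT in the first place (137 probes), 60.5% in the second (68) and 68.5% in the third (119). Of the probes within 5 IDs of AILP1, 8 were in the table, and 6 of these had a lower mean in toc90, with toc90 at 1.22% to 42.5% of WT where the WT mean was above 0. The median of these shares was 20.45%. Around AT5G49120, 7 of 8 had a lower mean in toc90, at 11.1% to 85.5% of WT, and the other was near 0 in both groups, at 0.000501 in WT and 0.00527 in toc90. The median share over all 8 was 22.69%. None of these neighbouring probes had a WT mean between 0.5 and 1, so they were dimmer than the probes compared by place. With quantile normalization inside each place the differences were -3.40 for AILP1 and -2.54 for AT5G49120. The part of probe position in the differences of AILP1 and AT5G49120 was not tested beyond this.

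Other genes were ranked by how closely their 12 values followed those of AILP1, each gene being divided by its own WT mean, with the root mean square difference over the 12 readings as the measure of likeness. They were picked for this likeness, so their values are descriptions. Of 562 other genes with at most 1 WT reading at 0, AT3G09250 was the most alike, at 0.0853, where the median gene stood at 0.507. It went from 0.354 ± 0.0206 in WT to 0.0127 ± 0.0113 in toc90 (SD, n = 6 each), with toc90 numbers 2 and 4 at 0. Next came AT5G48830 at 0.0889, AT1G13370 at 0.094, AT1G16080 at 0.0968 and AT3G20150 at 0.101. AT1G13370 encodes a histone H3-like protein. AT3G20150 was listed at 0 in all 6 toc90 readings and AT5G48830 in 5, so their shapes within toc90 carry little. The probe of AT5G48830 was among those within 5 IDs of the AILP1 probe, and stood at 1.22% of WT in toc90.

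The gene most like AT5G49120 was AT5G62840, with a root mean square difference of 0.0656 against a median of 0.47 over the 562 genes. It went from 0.736 ± 0.119 in WT to 0.0664 ± 0.0539 in toc90 (SD, n = 6 each), with toc90 number 4 at 0. It was followed by AT5G56070 at 0.0879, AT3G04650 at 0.0931, AT1G06730 at 0.0968 and AT3G44570 at 0.106. In all 5 of these genes the WT values were highest in numbers 3 and 4, as in AT5G49120. They were picked for likeness over these same readings, so a shared WT peak is in part built into the choice. The column means of WT numbers 3 and 4 were also the highest of the group, at 1.02 and 1.03. AILP1 was only the 26th most alike to AT5G49120, and AT5G49120 the 23rd most alike to AILP1, at a root mean square difference of 0.144.

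**Figure D5:**
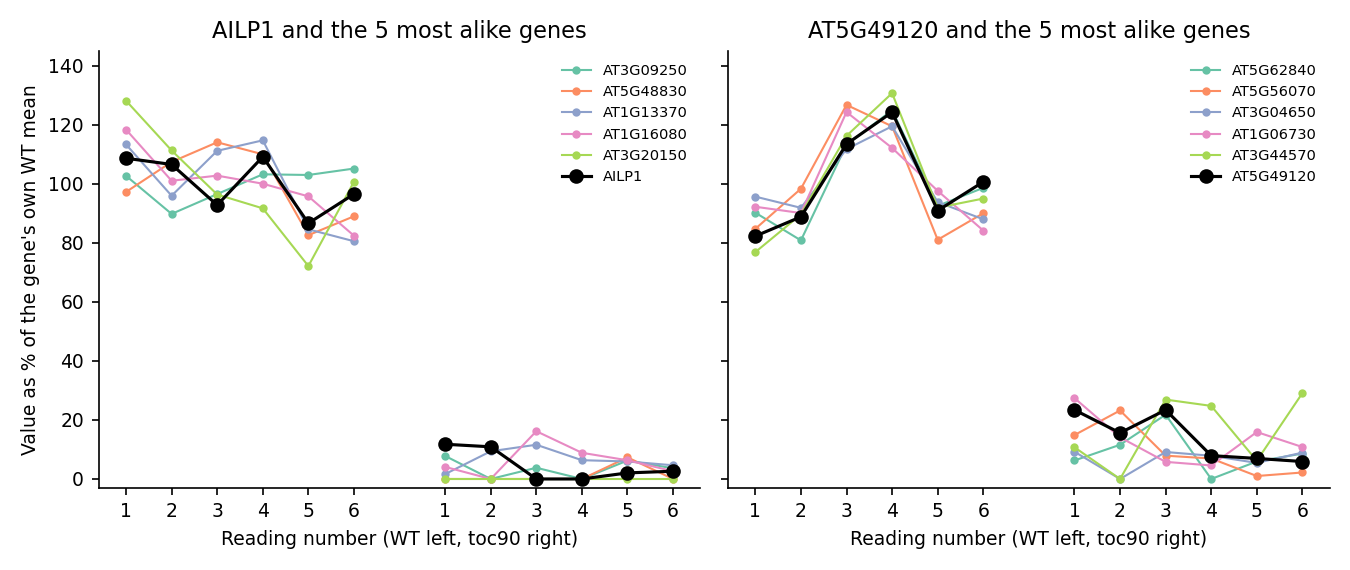
Value in each reading as a percentage of the gene's own WT mean, for AILP1 and AT5G49120 (black) and the 5 genes most like each (colours), with lines that only join the readings of a gene. AT5G49120 and its 5 genes share a peak in WT numbers 3 and 4, which AILP1 lacks, and in toc90 AILP1 stays at or below 11.8% and AT5G49120 at or below 23.4%. The genes in colours were picked for likeness over these same readings.

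Relatives and partners of both proteins were looked up on the array from 6 lists of 64 genes in all. Of these, 3 had a single-gene probe: AILP1, AT5G49120 and ETFQO, which encodes a mitochondrial enzyme that passes electrons from amino acid breakdown to the respiratory chain and was listed among dark and sugar starvation genes. ETFQO was read at 0.0326, 0.0409, 0.0209, 0, 0.0334 and 0.0407 in WT, and in toc90 number 3 at 0.0144 and in the other 5 readings at 0. Too few toc90 readings were above 0 for the limma fit. None of the 10 class II glutamine amidotransferase genes and none of the 6 aluminium response genes had a single-gene probe, and neither did the other 4 aluminium-induced-like genes, the other 17 FLZ genes or the 8 genes of the SnRK1 list.

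A further 3 probes list several genes, at least 1 of them from these lists, and so cannot be assigned to any of them. They were looked at after their values had been seen. The probe that lists AILP1 with its relatives AT5G43830 and AT3G22850 was read at 0.00982 and 0.149 in WT numbers 1 and 2 and at 0 in the other 4, and in toc90 at 0.00508 in number 4 and 0 in the other 5. It showed no level above the floor in most readings of either group, and gave no second reading of AILP1. The single-gene probe of AILP1 was read at 0.48 to 0.605 in WT, a level that this probe did not show. The reason for this difference between the probes was not tested. The probe that lists the FLZ genes AT1G74940, AT1G19200 and AT5G20700 was at 0 in all 6 WT readings and between 0 and 0.0691 in toc90.

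The third of these probes lists AKINBETA1 and AT4G16360, which encode beta subunits of SnRK1, the kinase that FLZ proteins bind. It was read at 0.253, 0.235, 0.358, 0.34, 0.27 and 0.293 in WT readings 1 to 6. In toc90 it was read at 0.0288, 0.0298, 0, 0.0865, 0.0451 and 0. The highest toc90 reading was below the lowest WT reading, as it was for 19.9% of all probes. The mean fell from 0.291 ± 0.0489 to 0.0317 ± 0.0322 (SD, n = 6 each). In log2 this was -1.99 ± 0.25 (SE), with a Benjamini-Hochberg adjusted p = 0.0005 in limma over 2687 probes, zeros left out. In the same fit limma called 17.0% of tested probes lower in toc90. This probe was looked at after its values had been seen, so its p-value is a description and not an independent test. The p-value measures the spread between these readings, which may be technical, and was 0.0484 after adjustment in limma with neighbouring readings averaged. Over 22 other settings the adjusted p ran from 0.000213 to 0.194, and 1 of them, zeros at the lowest positive value, did not pass. As with AT5G49120, its probe lay in the second place of the ID blocks. Its WT values were highest in numbers 3 and 4 too, the WT columns with the highest means, at 1.02 and 1.03.

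Both genes lie on chromosome 5 in the reference gene table of assembly TAIR10.1. Among the 10 annotated genes on either side of each, the only one with a single-gene probe was AT5G19150, next to AILP1. It was at 0 in 5 of 6 WT readings and 4 of 6 toc90 readings, with a highest value of 0.035, so no comparison with a neighbouring gene of measurable level could be made.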

How the data were processed

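The authors' deposited intensity values of total RNA, 1 value per probe and reading, were used as given. They run from 0 to 100, and no source used here names the scanner, background step, scaling or build. Groups and numbers came from the sample titles. Probes were named through the platform annotation, matched to the gene table of TAIR10.1 for 690 of 692 single-gene probes. From these values log2 was taken with zeros missing, columns were quantile normalized, and probes with at least 3 values in each group were fitted in R 4.3.3 with limma 3.58.1 (lmFit, eBayes), two-sided, a step also tested on simulated data. Deposited values with zeros included gave means, SDs, ratios and ranks. Named genes were both members, list genes with a single-gene probe, the 5 most alike genes of each and single-gene neighbours within 10 genes. Members and lists were chosen with earlier results of these data known. The alternatives were other scalings, treatments of zeros and of neighbouring readings, a filter on dim probes, blocks and readings left out. Python 3.11.15 and matplotlib 3.10.9 were used for figures.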

Additional observations from a re-analysis of the deposited data

How the results depend on the processing

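Against 643 calls over all probes, cyclic loess gave 353 of 1474 probes without zeros (180 higher, 173 lower), values as deposited 981 (85 and 896), zeros at the lowest positive value 258 (142 and 116), neighbouring numbers averaged 106 (31 and 75) and neighbouring numbers as a random block 277. An offset gave 284 higher and 334 lower. Leaving out single readings gave 475 to 620 calls. The numbers as a replicate block gave 418 calls, with AILP1 at -3.62 and AT5G49120 at -2.74. The deviations of readings with one number in WT and toc90 correlated at 0.0618 to 0.174, not all above 0.1, and 12 of 12 correlated best with their own number, a hint from the data that the labels do not give. Between neighbouring numbers of a group, the deviations correlated at 0.164 to 0.212 in WT and at -0.149 to 0.0317 in toc90. These deviations were taken from the mean of the same group, which by itself pulls correlations within a group below 0. They therefore do not show that neighbouring readings are independent. The fit with neighbouring numbers as a random block estimated a correlation of 0.518 between them. AILP1 moved from -3.48 to -4.28 with values as deposited and to -7.72 where zeros took the lowest positive value and so entered the fit. Over column medians, the ratios of means moved from 0.0455 to 0.115 for AILP1 and from 0.139 to 0.341 for AT5G49120, with lower medians in toc90. Leaving out single readings gave -3.78 to -3.08 and 0.0311 to 0.0547 for AILP1, and -2.90 to -2.53 and 0.12 to 0.154 for AT5G49120. Without numbers 1 and 2 the AILP1 ratio was 0.0122. Division by the column mean, chosen after seeing the data, gave 0.0516 and 0.142. AT5G49120 was lower in toc90 in each of these settings, and AILP1 in each but cyclic loess, which gave it no value because of its zeros. Values near the floor limit how well the AILP1 difference can be sized.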
